A study of Mus musculus with 10 samples.

Results

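The genes described here are the nuclear-encoded genes of the mitochondrial respiratory chain and ATP synthase, followed in mouse 4T1 mammary tumours given the WEE1 inhibitor MK1775 in a free or a Lipo form, with or without NLG919. They were taken by symbol: names that start with Nduf, Uqcr, Atp5 or Sdha to Sdhd, or with Cox4 to Cox8, together with Cyc1 and Cycs, and without pseudogene names. The rule gave 105 symbols of 52324 in the table, and 95 of them reached an FPKM of 1 in at least 2 libraries, against 12820 of all genes. The 10 below that level were Cox6b2, Cox6c2, Cox7b2, Cox8c, Ndufa11b, Ndufa13, Ndufb11b, Ndufb4c, Ndufs6b and Sdhaf3. By complex, the 95 comprised 44 genes of complex I, 7 of complex II, 9 of complex III, 17 of complex IV, 17 of complex V, and Cycs.

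The respiratory chain passes electrons from NADH and succinate to oxygen through complexes I to IV in the inner mitochondrial membrane, and the proton gradient this builds drives ATP synthase, complex V. Most of its subunits are encoded in the nucleus and imported, while a small set is encoded in the mitochondrial genome, so each complex other than complex II needs both. Core subunits for the most part carry the redox centres or the catalytic and rotary parts and have bacterial counterparts. Accessory subunits were added around them, and assembly factors build the complexes without staying in them. By that division, made by hand, the 95 held 22 core subunits, 61 accessory subunits and 11 assembly factors, with Cycs, the mobile carrier cytochrome c, apart. The core subunits of complex IV are mitochondrially encoded, so none of its genes here is core. Ndufa4, Ndufa4l2 and Cox7a2l were counted with complex IV, and Atp5e, the epsilon subunit of ATP synthase, with the accessory subunits.

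All tumours were subcutaneous, grown from 4T1, a mouse mammary carcinoma line, and taken on day 14. The 5 groups had 2 libraries each: negative control (PBS in the design text), Free-MK1775, Free-MK1775+NLG919, Lipo-MK1775 and Lipo-MK1775+NLG, the last read as NLG919 from the design text. MK1775 inhibits WEE1, a kinase that restrains entry into mitosis, and NLG919 acts on the IDO1 pathway of tryptophan breakdown. The labels state no dose, mouse strain, age or makeup of the Lipo form. Nothing says that the paired libraries are from different animals, so p-values measure only the spread between these samples, which may be technical. The comparisons share libraries and are not independent of each other.

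Levels are given as nuclear TPM: the deposited FPKM, a length-corrected value, rescaled so that the rows outside the mitochondrial genome have the TPM total in each library. Log2 changes are differences of mean log2(nuclear TPM + 1), which understate the change of low genes. Calls are those of limma with an adjusted p (Benjamini-Hochberg, across all 12820 genes) below 0.05, and "rose" and "fell" are used of calls alone. Relative depth between libraries ran from 1 to 1.96, and 83 of the 95 members had at least 100 fragments in every library, an estimate from the smallest FPKM steps.

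Libraries of high mitochondrial share stood apart. Genes of the mitochondrial genome made up 64.1% and 56.0% of summed FPKM in the Lipo-MK1775 libraries and 47.3% in Free-MK1775+NLG919 replicate 2, but 2.88% to 4.82% in the other 7. The same 3 libraries had 9406 to 10615 genes at an FPKM of 1, against 12016 to 12235. They also had more FPKM of the ribosomal RNA gene Rn18s, 3220 to 3655 against 523 to 1738. A sum of 3 endothelial markers was lower, 18.8 to 29.5 nuclear TPM against 59.3 to 109. The median of all genes tested was lower too, at -0.95 to -0.90 log2 units from the control mean. Sums of macrophage, neutrophil, fibroblast, epithelial, erythroid, muscle and fat markers overlapped between these 3 libraries and the other 7. The part of any of these in the results was not tested. Both Lipo-MK1775 libraries are among the 3, so in these data the Lipo-MK1775 treatment and this library composition cannot be told apart. The epithelial genes Krt8 and Krt18 were present in every library, at 292 to 759 and 638 to 1093 nuclear TPM, while Epcam ran from 0 to 12.2 and was listed at 0 in 2 libraries. In bulk tumour, fewer cells of a type and less RNA per cell cannot be told apart.

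Respiratory chain messages were abundant in these tumours and, as a sum, took a nearly constant part of the nuclear-encoded total. The 95 genes together made 2.09% and 2.28% of it in the control libraries, 2.41% and 2.27% in Free-MK1775, and 2.43% in each Free-MK1775+NLG919 library. In Lipo-MK1775 they made 2.01% and 2.24%, and in Lipo-MK1775+NLG 2.25% and 2.35%. Both Free-MK1775+NLG919 libraries lay above both control libraries, and the other groups overlapped the control. With 2 libraries a group an exact permutation test cannot reach 0.05, so none was run on sums.

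The control tumours set the order of levels. Atp5b, the catalytic beta subunit of ATP synthase, was highest at 1287 ± 46.2 nuclear TPM (SD, n = 2), followed by Cox4i1, the common form of a complex IV subunit, at 819 ± 113, and Ndufb9, an accessory subunit of complex I, at 780.2 ± 84.0. The 3 do not all separate: Cox4i1 and Ndufb9 lay within each other's spread. Of the 95, 68 had a control mean of at least 100 nuclear TPM. Only 5 were under 10, namely Cox4i2, Cox6a2, Cox7a1, Cox8b and Sdhaf1, of which the first 4 are isoforms with restricted tissue use.

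Ranges over the 10 libraries are those of nuclear TPM and depend on that scaling. The distance from the lowest to the highest library had a median of 0.884 log2 units over the 95 genes. It was under 1 for 57 and under 0.5 for 9, and no range of all genes is given beside these. With median-of-ratios scaling the accessory median in Lipo-MK1775 against the control was 1.02 in place of 0.04. The core median was 0.44 in place of -0.54. Ndufb10, an accessory subunit of complex I, was the steadiest, from 170.1 to 209 nuclear TPM. It was followed by Cox7a2l, a factor that links complexes III and IV, from 416 to 522, and by Ndufb8, from 224 to 282. At the other end stood Ndufa3, with 106 to 435, and the muscle isoforms Cox6a2 and Cox8b, whose low levels are given further on.

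**Figure D1:**
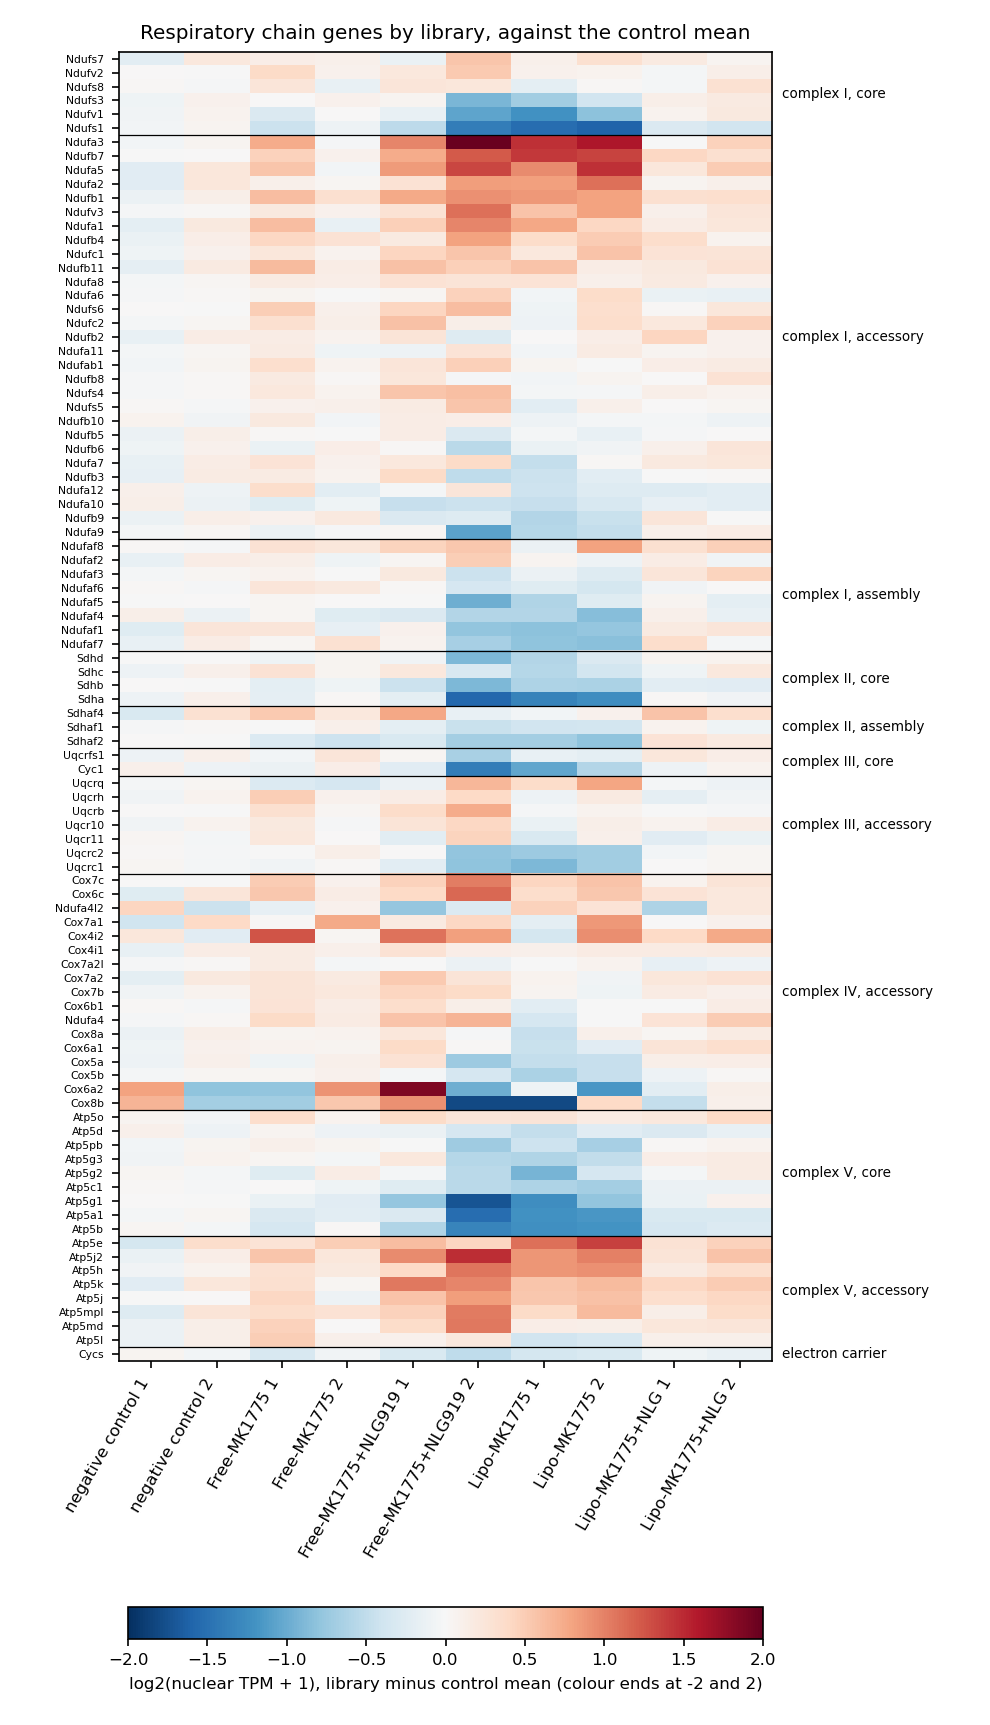
Heat map of the genes (rows, by complex and role, then by their level in Lipo-MK1775) in the 10 libraries (columns); colour is log2(nuclear TPM + 1) of the library minus the control mean. The Lipo-MK1775 libraries and Free-MK1775+NLG919 replicate 2 share a pattern of many lower core subunits (blue) and many higher accessory subunits of complexes I and V (red), and most rows are paler in the other 7 libraries; the blue of the core rows rests on the scaling used, since the core median in Lipo-MK1775 becomes 0.44 with median-of-ratios scaling.

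Lipo-MK1775 against the negative control asks what the Lipo form of the WEE1 inhibitor changed on its own. Respiratory chain subunits were called in both directions, and by role: 8 of 22 core subunits fell and none rose, while 8 of 61 accessory subunits rose and 2 fell. Of the 95 members, limma called 8 as risen and 11 as fallen, where 2.36% of all genes tested rose and 47.5% fell (49.8% called in either direction). All 8 that rose were accessory subunits, of complexes I and V. Of the 11 that fell, 8 were core subunits, 2 were accessory and 1 was an assembly factor. The core share that fell, 36.4%, was below that of all genes, and the core subunits below the control without overlap, 18 of 22 (81.8%), were near the all-gene share given next. The accessory share that rose was 13.1%, and 3.28% of accessory subunits fell. The median change of the 95 was -0.09, against -0.93 over all genes tested. Without regard to calls, 22 members lay above and 39 below the control with no overlap of the libraries (6.83% and 79.5% of all genes), and 54 had a change below 0 (88.1% of all genes).

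The gap between the roles kept its sign under each scaling run, but the direction of each side did not. For deposited FPKM and median-of-ratios scaling the kept gap is no check. Each differs from the main values by a factor per library, which cancels in the gap apart from the 1 added before the log. The median of the 22 core subunits was -0.54 and that of the 61 accessory subunits 0.04, a gap of -0.58. The gap was -0.60 on FPKM as deposited, -0.58 with median-of-ratios scaling, -0.64 with quantile scaling and -0.45 with a length trend taken out of each library, the last chosen after seeing the data. These settings shift the median of all genes by -0.16, 0.90, 0.86 and 0.90 log2 units in that order, and with it the balance of calls. Against 8 up and 11 down, deposited FPKM gave 2 up and 25 down, median-of-ratios 38 up and 1 down, quantile 22 up and 3 down, and removal of the length trend 10 up and 1 down. Ndufa3 and Ndufb7 as risen and Ndufs1 as fallen were called under all 5. With only transcripts that bear a symbol, 14 members were called, and Ndufs1 was not among them.

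Among the core subunits of complex I, Ndufs1, the largest subunit and a carrier of iron-sulphur clusters (chr1:63182755-63215992, minus strand, GRCm39), gave the lowest change. It stood at 96.2 and 104 nuclear TPM in the control, 73.8 and 92.9 in Free-MK1775, 69.6 and 37.9 in Free-MK1775+NLG919, 34.2 and 32.4 in Lipo-MK1775, and 82.1 and 76.2 in Lipo-MK1775+NLG. The Lipo-MK1775 libraries were the 2 lowest of the 10, and Free-MK1775+NLG919 replicate 2 came next. Ndufs1 fell by 1.56 log2 units in Lipo-MK1775 (SE 0.30, limma adjusted p = 0.0102), a 3.01-fold difference of means.

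Ndufv1, which binds NADH and the flavin FMN (chr19:4057384-4062806, minus strand), stood at 90.3 and 98.7 in the control, 77.3 and 95.1 in Free-MK1775, 85.5 and 44.8 in Free-MK1775+NLG919, 40.1 and 53.2 in Lipo-MK1775, and 99.0 and 108 in Lipo-MK1775+NLG. The 3 libraries of high mitochondrial share were again the lowest. It fell by 1.02 (SE 0.31, limma adjusted p = 0.0262). The other core subunits of complex I were not called. Ndufs3 had -0.54, while Ndufs7, Ndufs8 and Ndufv2 had 0.22, -0.09 and 0.08, so the core of complex I did not move as a block.

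All 4 subunits of complex II, which links the tricarboxylic acid cycle to the chain, were lower than the control without overlap, as were 79.5% of all genes. Sdha, its flavoprotein (chr13:74470373-74498399, minus strand, GRCm39), stood at 136 and 156 nuclear TPM in the control, 129 and 148 in Free-MK1775, 127 and 48.3 in Free-MK1775+NLG919, 57.0 and 60.7 in Lipo-MK1775, and 148 and 139 in Lipo-MK1775+NLG. The 3 high-share libraries were far below the other 7, which ran from 127 to 156. Sdha fell by 1.29 (SE 0.38, limma adjusted p = 0.0215). Sdhb, the iron-sulphur subunit, went from 251 and 247 to 161 and 159.6 and fell by 0.63 (limma adjusted p = 0.039), with the sign turned to 0.35 under median-of-ratios scaling. Sdhc and Sdhd, the membrane anchors, had -0.47 and -0.43 and were not called. Sdhaf2, which attaches the flavin to Sdha, went from 38.9 and 38.7 to 23.7 and 21.9 and fell by 0.74 (limma adjusted p = 0.0307); its sign turned under median-of-ratios (0.21), quantile (0.15) and length-trend (0.11) settings.

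Complex III was mixed. Uqcrc1, a large matrix subunit counted as accessory, went from 309 and 290.4 in the control to 161 and 185 in Lipo-MK1775 and fell by 0.79 (limma adjusted p = 0.0246), although median-of-ratios scaling gave 0.19. Its partner Uqcrc2 had -0.71 (limma adjusted p = 0.0516), below the control without overlap. Cyc1, cytochrome c1, stood at 128 and 110.3 in the control and 57.0 and 79.1 in Lipo-MK1775, a change of -0.81 that was not called (limma adjusted p = 0.0775). The Rieske protein gene Uqcrfs1 had -0.18, and the small subunit gene Uqcrq had 0.58 (limma adjusted p = 0.1). Cycs, the carrier between complexes III and IV, had -0.33.

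Complex IV moved least in terms of calls. Of its 17 genes 1 was called, Cox5b, from 432 and 459.6 to 287 and 325, a fall of 0.54 (limma adjusted p = 0.0498); it lies outside the rule for named genes and is named after its values were seen. Cox4i1 stood at 739 and 899.6 in the control and 873 and 913 in Lipo-MK1775, with overlap and a change of 0.13. Cox5a had -0.47, Cox6a1 -0.34, Cox8a -0.18, Ndufa4 -0.17, Cox7a2 0.00 and Cox7a2l 0.03, none of them called.

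ATP synthase was split as well: of its 17 genes, 8 had a change above 0 and 9 below (11.9% and 88.1% of all genes). The core subunits that fell are given here, and its other core subunits were not called. Atp5b (chr10:127919142-127926260, plus strand, GRCm39) stood at 1319.7 and 1254 nuclear TPM in the control, 1025 and 1313 in Free-MK1775, 849.9 and 514 in Free-MK1775+NLG919, 548 and 563 in Lipo-MK1775, and 1025 and 1062 in Lipo-MK1775+NLG. The 3 high-share libraries were the lowest, and the other 7 started at 849.9. It fell by 1.21 (SE 0.26, limma adjusted p = 0.0111). The alpha subunit gene Atp5a1 went from 699.8 and 738 to 311 and 319 and fell by 1.19, and Atp5c1, the gamma subunit of the central stalk, from 558 and 535 to 356 and 342, a fall of 0.64 that median-of-ratios scaling turns to 0.34. Atp5g1, 1 of 3 genes for the same subunit of the membrane ring, went from 158 and 156 to 65.6 and 90.7 and fell by 1.02.

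Against these, 7 of the 8 accessory subunits of ATP synthase stood above the control without overlap, as did 6.83% of all genes, and 3 of them rose. Atp5e, the small epsilon subunit (chr2:174302865-174305898, minus strand, GRCm39), stood at 349 and 565 nuclear TPM in the control, 539 and 623 in Free-MK1775, 682 and 598 in Free-MK1775+NLG919, 955 and 1149 in Lipo-MK1775, and 544 and 610.0 in Lipo-MK1775+NLG. Both Lipo-MK1775 libraries lay above the other 8, and here Free-MK1775+NLG919 replicate 2 did not follow them. It rose by 1.24 (SE 0.26, limma adjusted p = 0.0108). Atp5h, of the peripheral stalk, rose by 0.90 (391 and 435 to 763 and 782), and Atp5j2, a membrane subunit, by 0.94 (136 and 164 to 277 and 300.0). Atp5k had 0.59 (limma adjusted p = 0.0515). The exception was Atp5l, which stood below the control at 324 and 337 against 389.7 and 455 (-0.35).

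The largest rises were in accessory subunits of complex I, small proteins around the catalytic core. Ndufa3 (chr7:3620372-3623326, plus strand, GRCm39) stood at 106 and 115 nuclear TPM in the control, 185 and 108 in Free-MK1775, 218 and 435 in Free-MK1775+NLG919, 304 and 341 in Lipo-MK1775, and 109 and 151 in Lipo-MK1775+NLG. Its 3 highest values were those of the high-share libraries. It rose by 1.54 (SE 0.36, limma adjusted p = 0.0126), a 2.93-fold difference of means.

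Ndufb7 (chr8:84293300-84298255, plus strand) behaved alike, with 134 and 137 in the control, 188 and 145 in Free-MK1775, 227 and 318 in Free-MK1775+NLG919, 362 and 348 in Lipo-MK1775, and 182 and 169.9 in Lipo-MK1775+NLG. It rose by 1.38 (SE 0.24, limma adjusted p = 0.00936), and the control pair was below every treated library. Ndufa5 rose by 1.20 (56.3 and 77.9 to 128 and 184), Ndufa2 by 0.96 (183 and 248 to 378 and 458) and Ndufb1 by 0.83 (74.3 and 88.0 to 148 and 142). Of the 29 accessory subunits of complex I, 5 rose and none fell. Ndufb9, among the most abundant, stood lower at 518 and 571 against 721 and 839.6 (-0.52, limma adjusted p = 0.0557).

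**Figure D2:**
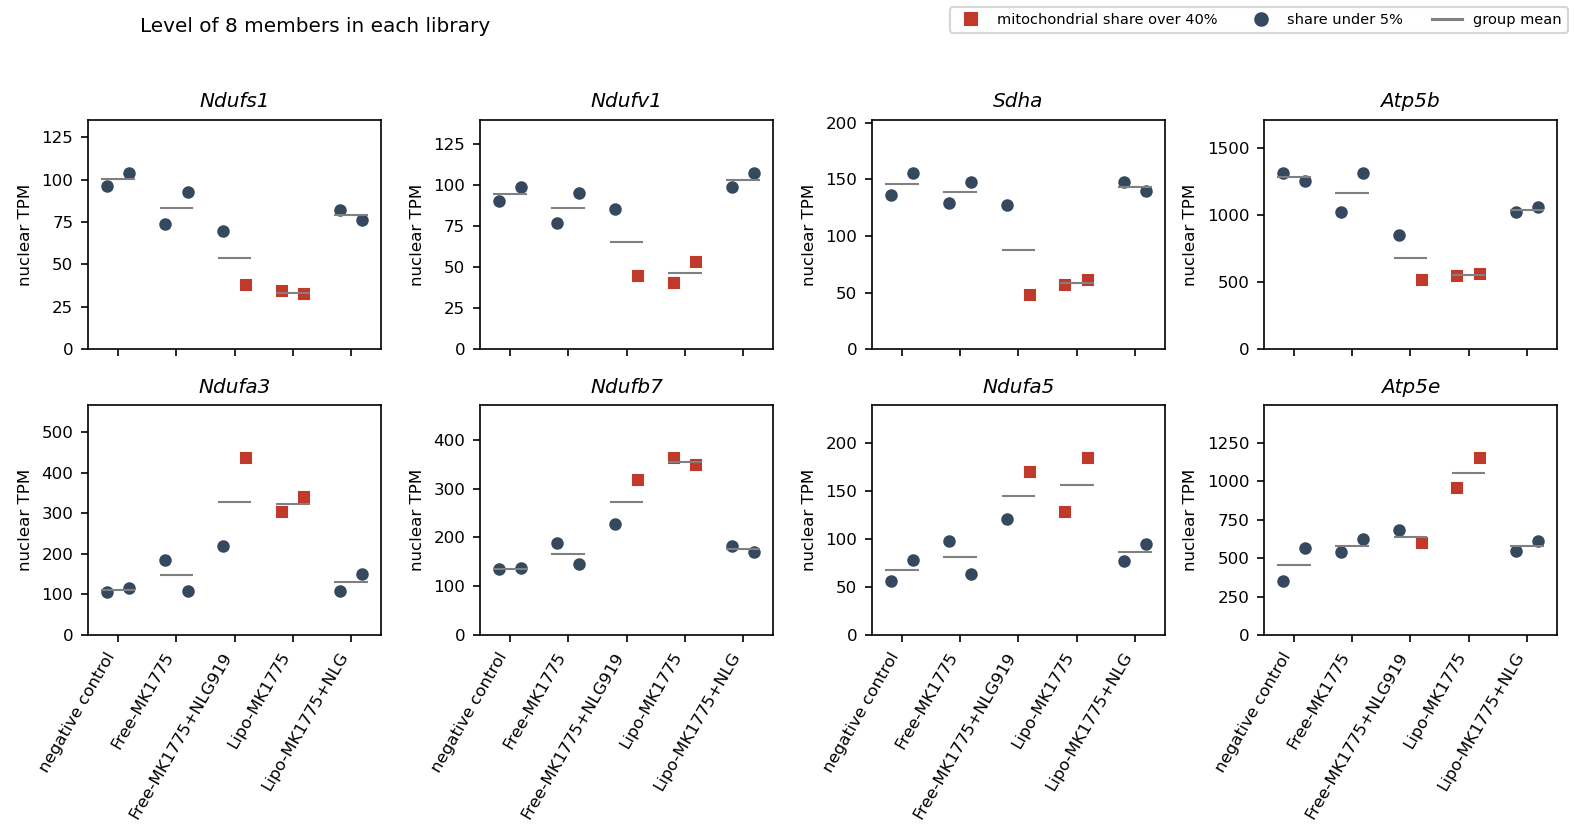
Nuclear TPM (linear axis from 0) of 4 subunits that fell in Lipo-MK1775 against the control (top) and 4 that rose (bottom), one point per library and a grey line at each group mean; red squares are the 3 libraries in which the mitochondrial genome takes over 40% of summed FPKM. Apart from Atp5e in Free-MK1775+NLG919 replicate 2, at 598, the red squares are the lowest points in the top panels and the highest in the lower ones.

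These calls rest on few libraries. Without either control library or without Lipo-MK1775 replicate 1 no member was called, and without Lipo-MK1775 replicate 2 there were 2, Ndufb7 and Ndufs1. Without either Free-MK1775+NLG919 library there were 44, with 73.2% of all genes called. Where leaving out a library leaves a group with 1, that library is assumed to vary like the other groups. With the mitochondrial share as a covariate none was called, and the signs of Sdha (0.41), Atp5a1 (0.31), Atp5g1 (0.23) and Ndufv1 (0.20) turned. In the main fit 29 members had an unadjusted p under 0.05.

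Transcript length followed the split. Members are short messages, with a median length of 838 nt against 2793 nt over all genes tested, and core subunits (1297 nt) are longer than accessory ones (680 nt). Across the 95 members the Lipo-MK1775 change and length had a Spearman correlation of -0.52, and across all genes tested -0.53; genes are not independent replicates, and all points come from the same 4 libraries. Between 800 and 1600 nt, where both roles have members, the 12 core subunits had a median of -0.48 and the 18 accessory subunits 0.28, at median lengths of 1154 and 1003 nt. The part of length in the calls was not tested beyond the setting that takes a length trend out. Within the core the correlation was -0.48, and within the accessory subunits -0.19.

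**Figure D3:**
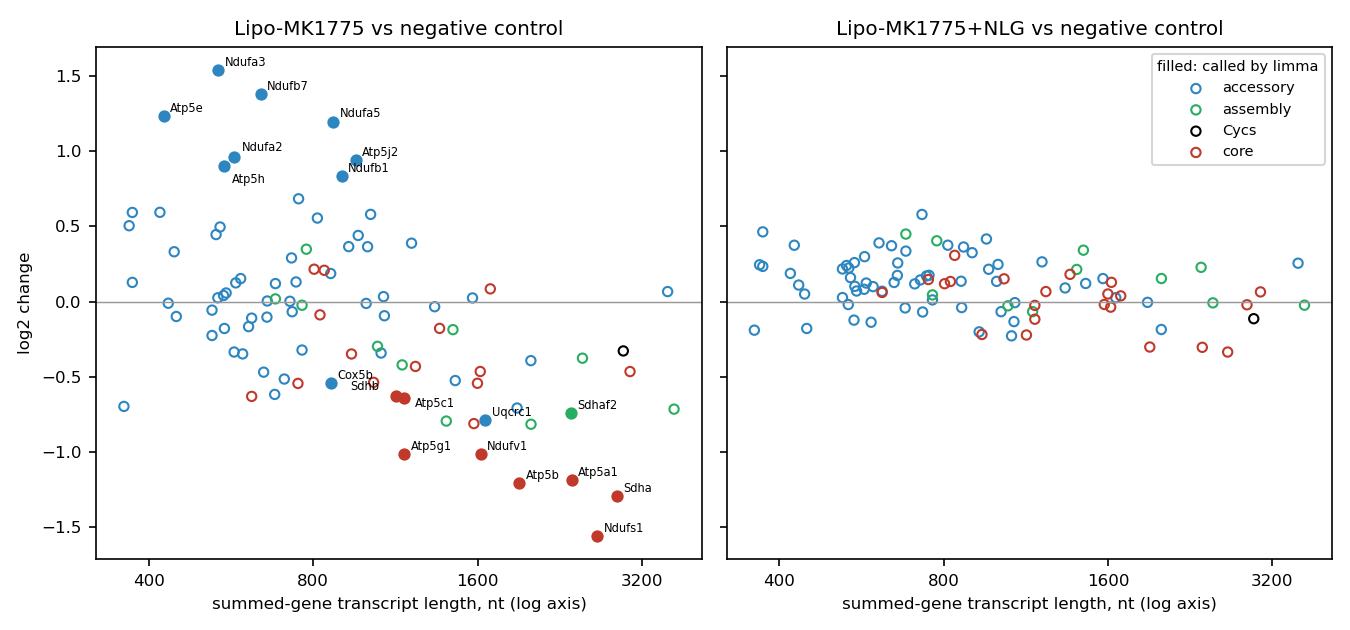
Log2 change against the negative control (vertical axis) and transcript length in nt (log axis) for the 95 members in Lipo-MK1775 (left) and Lipo-MK1775+NLG (right), coloured by role; filled points were called by limma. In Lipo-MK1775 the members that fell are mostly the longer core subunits and those that rose are short accessory subunits; in Lipo-MK1775+NLG all members lie within 0.6 log2 units of 0.

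Many respiratory chain promoters are known to hold sites for NRF1, for the ETS factor GABPA and for YY1, which makes it useful to set members that moved apart beside each other. RefSeq windows on GRCm38.p6, another build than the files', covered 78 of the 95 members with 83 windows, and the 250 bases before each start were searched on both strands. The NRF1 motif was in 8 of the 83 (9.64%) and in 1.83% of all 32851 windows. The GABPA letters, CCGGAAG, were in 15 (18.1%) and in 6.91%, and the YY1 letters, AAGATGGCG, in 1 (1.2%) and in 0.606%. A match is a description and not a shown site. Windows with one of them were found on both sides of the split. The next 4 are shown because their genes were called in opposite directions; capitals mark the match.
Ndufb7 (rose; chr8:83566508-83566757, GRCm38.p6, plus strand; GABPA letters on the gene's strand, 20 bases before the start): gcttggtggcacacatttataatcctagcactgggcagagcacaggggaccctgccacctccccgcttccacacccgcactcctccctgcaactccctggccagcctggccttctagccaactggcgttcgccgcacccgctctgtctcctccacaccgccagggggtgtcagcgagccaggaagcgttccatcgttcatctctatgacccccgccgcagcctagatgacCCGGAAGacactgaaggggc
Atp5e (rose; chr2:174464102-174464351, GRCm38.p6, minus strand; GABPA letters on the opposite strand, 102 bases before): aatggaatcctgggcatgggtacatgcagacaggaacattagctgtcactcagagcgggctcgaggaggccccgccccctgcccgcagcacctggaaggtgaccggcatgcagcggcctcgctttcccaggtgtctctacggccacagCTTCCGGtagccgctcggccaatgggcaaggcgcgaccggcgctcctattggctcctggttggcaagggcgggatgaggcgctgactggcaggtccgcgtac
Atp5c1 (fell; chr2:10080433-10080682, GRCm38.p6, minus strand; NRF1 motif on the gene's strand, 17 bases before): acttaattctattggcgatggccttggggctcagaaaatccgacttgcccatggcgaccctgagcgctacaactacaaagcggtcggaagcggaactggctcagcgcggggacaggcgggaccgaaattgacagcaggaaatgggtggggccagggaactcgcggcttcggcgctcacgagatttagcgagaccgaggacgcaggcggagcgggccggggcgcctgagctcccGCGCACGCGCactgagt
Sdhaf2 (fell; chr19:10525210-10525459, GRCm38.p6, minus strand; GABPA letters on the opposite strand, 158 bases before): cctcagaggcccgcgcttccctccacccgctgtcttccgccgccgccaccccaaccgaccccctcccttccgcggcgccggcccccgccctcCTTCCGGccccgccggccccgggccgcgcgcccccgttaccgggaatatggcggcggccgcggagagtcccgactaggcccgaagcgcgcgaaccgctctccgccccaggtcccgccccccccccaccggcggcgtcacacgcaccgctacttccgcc

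The Ndufb7, Atp5e and Sdhaf2 windows hold the same GABPA letters at different distances from the start, and the first 2 genes rose while the third fell. The falls of Sdhaf2 and Atp5c1 depend on the scaling, and median-of-ratios gave 0.21 and 0.34. Atp5h, which rose, also has the GABPA letters and is not shown. Atp5c1 has 2 windows, with the NRF1 motif in 1. The genes of NRF1, GABPA and YY1 were themselves lower in Lipo-MK1775. Nrf1 went from 33.7 and 26.9 nuclear TPM in the control to 10.7 and 11.6 and fell by 1.36 (limma adjusted p = 0.0146). Gabpa fell by 1.09 (34.8 and 30.3 to 17.1 and 12.6) and Yy1 by 1.37 (80.9 and 72.1 to 29.1 and 28.7). Over the list of regulators of mitochondrial biogenesis, 9 of 13 measured genes fell (69.2%, beside 47.5% of all genes) and none rose, with a median of -1.09 beside the -0.93 of all genes; it includes Pprc1 (-1.52), Tfam (-1.03), which packages mitochondrial DNA, and Myc (-1.66).

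Other mitochondrial groups gave these counts for Lipo-MK1775 against the control, where 47.5% of all genes fell and 2.36% rose. The median of all genes was -0.93, and no counts under the other scalings are given for these lists. Of 14 tricarboxylic acid cycle genes 11 fell (78.6%) and none rose, with a median of -0.89. Of 36 measured assembly factors outside the name rule, 9 fell and 4 rose (11.1%), with a median of -0.62. Mitochondrial protein import had 5 fallen of 24 (20.8%, median -0.23) and mitochondrial ribosomal proteins 12 fallen (15.4%) and 2 risen (2.56%) of 78 (median -0.31). The shares that fell in these 3 groups were below the 47.5% of all genes, a difference that was not tested. Genes of hypoxia and glycolysis had 11 fallen of 15 (73.3%, median -1.06). Cytosolic ribosomal protein genes, also short (806 nt), had 40 risen of 89 (44.9%) and none fallen, a median of 0.66, and made 23.2% and 23.4% of the nuclear total in Lipo-MK1775 against 13.6% and 15.1% in the control. The median of the respiratory chain members, -0.09, lay between those of the other mitochondrial groups and that of the cytosolic ribosomal proteins.

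All 13 mitochondrially encoded subunits of the same complexes rose, with a median of 5.90 log2 units, beside 2.36% of all genes. Values are scaled to the total outside the mitochondrial genome, so these rises restate the high mitochondrial share of the Lipo-MK1775 libraries. Their summed FPKM was 2.19 and 1.53 times that of the nuclear members in the control libraries, and 1.13 to 1.92 times in the other low-share libraries. In the high-share libraries the ratio was 85.0 and 54.6 in Lipo-MK1775 and 35.5 in Free-MK1775+NLG919 replicate 2. The ratio is another form of the mitochondrial share by which these 3 libraries were set apart, and not a separate result.

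Lipo-MK1775 against Free-MK1775 compares the forms of the drug. Members differed in both directions: 6 were higher, all accessory, and 12 lower, of which 6 were core subunits, 5 accessory subunits and 1 an assembly factor, where 1.80% and 37.5% of all genes were called up and down (39.3% in all). With no overlap of the libraries, 14 were higher and 46 lower (5.63% and 78.6% of all genes), and 71 had a change below 0 (89.7% of all genes). Uqcrq was among those higher, at 269 and 361 nuclear TPM against 173 and 165, a change of 0.88 (SE 0.28, limma adjusted p = 0.0371), with Ndufa3 (1.18), Ndufb7 (1.10), Ndufa5 (0.95), Ndufa2 (0.89) and Atp5e (0.85). Lower in the Lipo form were Ndufs1 (-1.29), Sdha (-1.22), Atp5b (-1.06), Atp5a1 (-0.94), Ndufv1 (-0.88), Uqcrc2 (-0.77), Uqcrc1 (-0.76), Atp5l (-0.65) and Atp5c1 (-0.61). Ndufb9 went from 829 and 891 to 518 and 571 (-0.66). The assembly factor Ndufaf7 went from 19.4 and 23.5 to 10.4 and 10.2 (-0.99), and Cox5b, outside the rule for named genes, was also called. The median of the 95 was -0.21 (all genes -0.85), of the core -0.58 and of the accessory subunits -0.10.

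Its calls moved with the settings. Deposited FPKM gave 0 up and 33 down, median-of-ratios 7 up and 0 down and quantile scaling 2 up and 0 down, and under median-of-ratios Ndufv1 (0.02), Uqcrc2 (0.13), Uqcrc1 (0.14), Ndufb9 (0.25) and Atp5l (0.26) turned sign. With the length trend taken out 3 were up and 0 down, and core minus accessory was -0.14 in place of -0.48. No member was called when any 1 of the 4 libraries compared was left out, nor with the mitochondrial share as a covariate.

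Free-MK1775 against the negative control asks what the free drug changed. No member was called and none had an unadjusted p under 0.05, where limma called 1 gene of 12820 (0.0078%). The values leaned upward: 73 of 95 members had a change above 0, and 22 below 0, against 37.0% and 62.9% of all genes, with a median of 0.10 beside -0.07. Here too change and transcript length had a negative Spearman correlation, -0.50 over the members and -0.31 over all genes. The part of length in this lean was not tested beyond the setting that takes a length trend out. With no overlap of the libraries, 25 were higher and 7 lower (12.1% and 22.3% of all genes). Accessory subunits had a median of 0.15 and core subunits -0.02. The highest values were Cox4i2 (0.65), Ndufb1 (0.47, from 74.3 and 88.0 to 125 and 101) and Cox7a1 (0.39), and the lowest Sdhaf2 (-0.35), Uqcrq (-0.30) and Ndufs1 (-0.27). Cycs, which also acts in apoptosis once released, stood at 45.5 and 42.3 in the control and 34.9 and 41.7 in Free-MK1775 (-0.20). Of the fixed genes, Atp5a1 (-0.24), Atp5b (-0.15), Sdhb (-0.15), Ndufv1 (-0.14), Sdha (-0.08), Uqcrc1 (-0.03), Cyc1 (0.01), Cox5a (0.00) and Uqcrfs1 (0.09) all lay within 0.25 of 0.

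Free-MK1775+NLG919 against the control had libraries that disagreed. No member was called, where 0.148% of all genes were, but 24 members had an unadjusted p under 0.05. With no overlap of the libraries, 40 members were higher and 20 lower (9.14% and 48.5% of all genes), and 55 had a change above 0 (20.9% of all genes). Replicate 1, of low mitochondrial share, had a core median of -0.10 and an accessory median of 0.29 against the control mean, and replicate 2, of high share, had -0.68 and 0.41. The median of all genes tested was -0.12 in replicate 1 and -0.94 in replicate 2. The accessory subunits were thus higher than the control in both. The core was far below the control in replicate 2 alone, and there less far than all genes. Over the group the core median was -0.38 and the accessory median 0.34. With median-of-ratios scaling they were 0.20 and 0.87. The Spearman correlation of change and transcript length was -0.61 over the members and -0.49 over all genes.

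Ndufa3 (1.48), Atp5j2 (1.21) and Ndufa5 (1.10) had the highest changes in that group. Atp5j2 stood at 289.7 and 417 nuclear TPM against 136 and 164 in the control, and Atp5k at 389 and 372 against 160.2 and 220.1 (1.02), both without overlap. The lowest were Atp5g1 (-1.25, at 91.1 and 46.6 against 158 and 156), Atp5b (-0.96) and Ndufs1 (-0.95). None reached the threshold (limma adjusted p = 0.0836 for Atp5j2 and 0.096 for Ndufa3 and Atp5g1). Without replicate 1 of the group, which leaves the high-share library alone with its spread taken from the other groups, 54 members were called, with 65.4% of all genes. Without replicate 2 none was, with 0.0312% of all genes; quantile scaling called 4. Against Free-MK1775, the same group had 0 called (1 gene of 12820, 0.0078%) and 11 members with an unadjusted p under 0.05, with a median of 0.02. With no overlap of the libraries 22 were higher and 19 lower (5.63% and 34.1% of all genes), and 46 had a change below 0 (81.6% of all genes). Ndufa3 (1.12), Ndufa5 (0.85) and Atp5k (0.84) were highest and Atp5g1 (-1.08), Cyc1 (-0.81) and Atp5b (-0.81) lowest. Without replicate 1 this gave 43 calls, on the same assumption and with 62.3% of all genes called.

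Lipo-MK1775+NLG lay close to the control. No member was called and none had an unadjusted p under 0.05, where limma called 0% of all genes (200 had an unadjusted p under 0.05). The median of the 95 was 0.12, against -0.03 over all genes, with 65 above 0 and 30 below (45.6% and 54.4% of all genes). With no overlap of the libraries, 38 were higher and 13 lower (22.6% and 28.2% of all genes). Core and accessory medians were 0.04 and 0.13. The Spearman correlation of change and transcript length was -0.30 over the members and -0.25 over all genes. The highest values were Cox4i2 (0.58), Atp5k (0.46, at 252 and 267 against 160.2 and 220.1) and Sdhaf4 (0.45), an assembly factor of complex II, and the lowest Ndufs1 (-0.34), Atp5a1 (-0.30) and Atp5b (-0.30). Those 3 lay below the control without overlap, at 1.27-fold, 1.24-fold and 1.23-fold lower means.

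Lipo-MK1775+NLG against Lipo-MK1775 asks what NLG919 added to the Lipo form, and members differed in both directions. By role, 5 of 22 core subunits were called higher (22.7%) and none lower, and of 61 accessory subunits 3 were called higher (4.92%) and 4 lower (6.56%), with 32 above 0 and 29 below. Members called higher were 11 and lower 4, where 43.8% and 1.93% of all genes were (45.7% in all). With no overlap of the libraries, 47 were higher and 20 lower (81.7% and 6.11% of all genes), and 64 had a change above 0 and 31 below (90.0% and 9.97% of all genes). The comparison shares the Lipo-MK1775 libraries with those above, so it is not a separate observation of that group. Sdha had 1.27 (SE 0.38, limma adjusted p = 0.0291), Ndufs1 1.22, Ndufv1 1.14, Ndufaf1 1.01, Atp5g1 0.99, Sdhaf2 0.97, Ndufaf7 0.97, Atp5b 0.91, Uqcrc1 0.82, and Cox6a1 and Ndufb9 0.63 each. Ndufaf1, an assembly factor of complex I, went from 12.4 and 12.8 nuclear TPM to 25.9 and 26.9, and Cox6a1, the common form of a complex IV subunit, from 418 and 482 to 681 and 714. Ndufa3 (-1.32), Ndufb7 (-1.01), Ndufa2 (-0.88) and Atp5e (-0.86) were lower.

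Of the 11 assembly factors among the members, all 11 were higher with NLG (90.0% of all genes), 9 without overlap (81.8%, beside 81.7% of all genes), and 3 were called (27.3%, beside 43.8%). Scaling again set the direction of the whole: deposited FPKM gave 32 higher and 0 lower, median-of-ratios 0 and 6 and quantile scaling 0 and 3. Core minus accessory was between 0.52 and 0.60, but a factor per library, as in deposited FPKM and median-of-ratios, nearly cancels in it. With the length trend taken out it was 0.20. Without any 1 of the 4 libraries compared, and with the mitochondrial share as a covariate, no member was called.

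**Figure D4:**
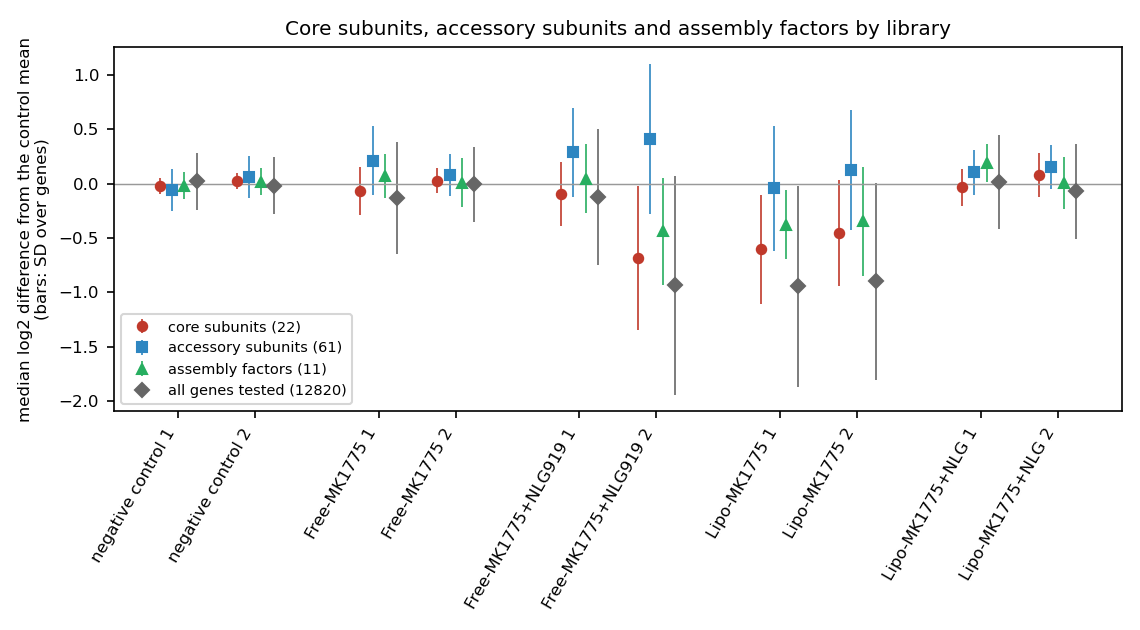
Median log2 difference from the control mean in each library for core subunits, accessory subunits, assembly factors and all genes tested; bars are the SD over genes, which are not replicates. Core subunits lie 0.46 to 0.68 below the control in the 3 libraries of high mitochondrial share and within 0.10 of it in the others. That direction holds for the scaling shown and not with median-of-ratios. All genes tested lie lower still in those 3 libraries, at -0.95 to -0.90. Accessory subunits lie between -0.06 and 0.41.

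The ratio of summed core to summed accessory messages, which no scaling factor of a library can change, puts the same pattern in 1 number per library. It was 0.501 and 0.445 in the control, 0.374 and 0.440 in Free-MK1775, 0.350 and 0.212 in Free-MK1775+NLG919, 0.270 and 0.260 in Lipo-MK1775, and 0.408 and 0.413 in Lipo-MK1775+NLG. All 8 treated libraries were below both control libraries, the 3 of high mitochondrial share the furthest. Free-MK1775 replicate 2 and control replicate 2 were separated by 0.005, which is less than the gap of the control pair. Both Lipo-MK1775+NLG libraries also lay below control replicate 2 by less than that gap.

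Several subunits exist as paired genes for different tissues. Cox6a2, Cox7a1 and Cox8b are the heart and skeletal muscle forms of complex IV subunits, Cox4i2 is the form best known from lung, and Ndufa4l2 is a hypoxia-responsive relative of Ndufa4. Cox4i2 made 0.390% to 1.34% of the Cox4i1 and Cox4i2 total over the 10 libraries, Cox6a2 0.142% to 1.68% of its pair, Cox8b 0% to 0.677%, Cox7a1 2.66% to 6.48% and Ndufa4l2 1.28% to 5.97%. These shares rest on 0 to 152 fragments. None of Cox4i2, Cox6a2, Cox8b, Cox7a1 and Ndufa4l2 was called in any comparison.

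Cox6a2 stood at 5.58 and 1.15 nuclear TPM in the control, 1.18 and 6.02 in Free-MK1775, 12.7 and 0.911 in Free-MK1775+NLG919, 2.56 and 0.686 in Lipo-MK1775, and 2.26 and 3.09 in Lipo-MK1775+NLG. Cox8b stood at 4.59 and 1.16, 1.16 and 4.03, 5.53 and listed at 0, listed at 0 and 3.59, and 1.49 and 2.73 in the same order. For both genes the 2 libraries of a group lay furthest apart in Free-MK1775+NLG919 and closest in Lipo-MK1775+NLG. The summed level of 16 skeletal muscle markers was 446 and 131 in the control, 94.3 and 734 in Free-MK1775, 805 and 79.9 in Free-MK1775+NLG919, 50.4 and 129 in Lipo-MK1775, and 305 and 259 in Lipo-MK1775+NLG. The 3 libraries highest in muscle markers were the 3 highest in Cox6a2 and in Cox8b; 7 muscle markers were at 0 in Free-MK1775+NLG919 replicate 2 and 3 in Lipo-MK1775 replicate 1. The part of muscle in these values was not tested. Cox7a1 and Cox4i2 did not keep that order, and the brown fat gene Ucp1 was listed at 0 in 9 of 10 libraries.

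**Figure D5:**
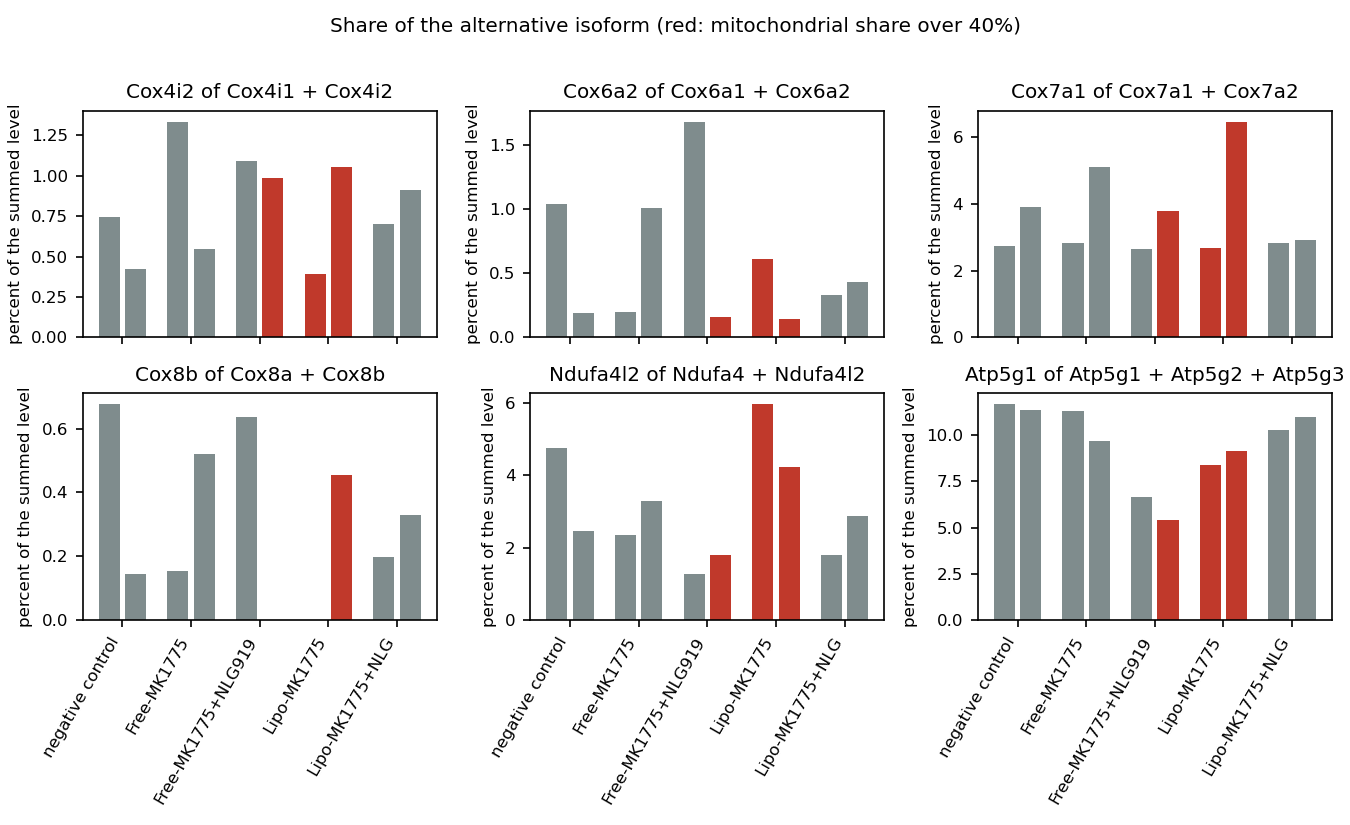
Share of the less common gene in the summed nuclear TPM of its family, in percent, one bar per library in the order of replicates; red bars are the 3 libraries of high mitochondrial share, and the missing Cox8b bars are values of 0. Cox6a2 and Cox8b are highest in control replicate 1, Free-MK1775 replicate 2 and Free-MK1775+NLG919 replicate 1, and Atp5g1 runs from 5.40% to 11.7%.

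Ndufa4l2 stood at 13.2 and 6.83 nuclear TPM in the control, 8.37 and 10.2 in Free-MK1775, 5.18 and 7.75 in Free-MK1775+NLG919, 13.4 and 11.8 in Lipo-MK1775, and 5.88 and 11.2 in Lipo-MK1775+NLG. Its pairs overlapped the control throughout. Atp5g1 made 11.7% and 11.4% of the 3 ring genes in the control, 6.63% and 5.40% in Free-MK1775+NLG919, 8.40% and 9.13% in Lipo-MK1775, and 10.3% and 11.0% in Lipo-MK1775+NLG.

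A few members carry limits of counting. Ndufa13, a subunit of complex I, was listed at 0 in every library, while an unnamed assembled transcript at its locus (chr8:70346819-70355208, minus strand, GRCm39) had 21.8 to 52.4 FPKM and went by overlap to the neighbour Yjefn3. Among the 95, 6 share a locus with another symbol: Atp5b, Atp5g2, Atp5o, Ndufb2, Ndufb8 and Ndufb9. The pseudogene Ndufa12-ps had 19.6 to 41.6 FPKM, so reads of Ndufa12 (105 to 179 nuclear TPM) may have been split with it. The strand setting of the counting is not given in the sources used here.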

How the data were processed

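RNA of 10 tumour libraries was made with an RNeasy kit and a NEBNext kit, per the labels' protocols; the submitters' processing notes name FastQC, Trim Galore, HISAT2, StringTie and GRCm39. The authors deposited 1 FPKM value per transcript and library; mitochondrial transcripts count in its total. Transcripts were summed by symbol, and 14868 of 21051 unnamed ones were added to the symbol they overlap most at their locus. FPKM were rescaled to the TPM total over rows outside the mitochondrial genome. All 5 groups entered 1 fit of log2(value + 1) with limma 3.58.1 in R 4.3.3, with a variance trend, on genes at an FPKM of 1 in 2 libraries; the test was two-sided with Benjamini-Hochberg adjustment, and was tested on simulated data. The 7 comparisons were 4 against the control and 3 between treated groups.

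Members and lists were chosen with earlier results of these data known. Named genes were, per comparison, up to 10 a direction called without overlap, the 3 highest and 3 lowest changes, 24 fixed genes of which 23 are in the table, and the members of extreme level or range. Alternatives were other scalings, pseudocount, filter and transcript summary, a replicate block, no trend, fits of fewer groups or libraries, the mitochondrial share as covariate and, added after seeing the data, a length trend taken out. Values of 1 fixed gene are not reported here.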

Additional observations from a re-analysis of the deposited data

Results flagged for a closer look

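For some members NLG919 went with opposite differences in the free and the Lipo form of MK1775, at a share near that of all genes. The named genes were chosen in part by their calls and extreme changes in these same comparisons. In 19 of the genes named in the report, the libraries with and without NLG919 did not overlap in either form, and the directions were opposite. The difference itself was not tested. The separation could be narrow: for Sdha in the free form, the low-share library with NLG919 lay just below the lower library without it. Opposite directions without overlap were found in 29 of 95 members (30.5%), beside 4256 of 12820 genes (33.2%). The directions differ: lower in the free form and higher in the Lipo form were 17 members (17.9%) beside 31.5% of all genes, and the reverse 12 members (12.6%) beside 1.74%; no test was made of these shares.

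Given first is the log2 difference of the Lipo form minus the free form, then in parentheses the change with NLG919 in the free form and in the Lipo form. 10 of them, core subunits for the most part, were lower with NLG919 in the free form and higher in the Lipo form: Atp5a1 1.54 (-0.66, 0.88), Atp5b 1.72 (-0.81, 0.91), Atp5c1 0.89 (-0.36, 0.53), Atp5g1 2.07 (-1.08, 0.99), Cyc1 1.61 (-0.81, 0.79), Ndufb9 1.05 (-0.41, 0.63), Ndufs1 1.90 (-0.68, 1.22), Sdha 2.08 (-0.81, 1.27), Sdhb 0.92 (-0.51, 0.41), Uqcrc1 1.29 (-0.48, 0.82). The other 9, small accessory subunits, went the other way: Atp5h -1.13 (0.49, -0.64), Atp5j2 -1.35 (0.83, -0.53), Atp5k -0.97 (0.84, -0.13), Ndufa2 -1.37 (0.49, -0.88), Ndufa3 -2.43 (1.12, -1.32), Ndufa5 -1.69 (0.85, -0.84), Ndufb1 -0.87 (0.37, -0.51), Ndufb7 -1.71 (0.70, -1.01), Uqcrq -1.22 (0.58, -0.65). The libraries of high mitochondrial share are Free-MK1775+NLG919 replicate 2 and both of Lipo-MK1775, on opposite sides of the contrasts, and their part in this was not tested.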

How the results depend on the processing

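With 2 libraries a group, the member calls moved with scaling, filter and left-out libraries; where no value shows the cause, the cause was not tested. For Lipo-MK1775 against the control (19 calls, median -0.09), calls were 39 with median-of-ratios scaling, 42 with only the groups compared, 0 with the mitochondrial share as covariate and 11 with the length trend taken out, a setting chosen after seeing the data. Medians were -0.51 on deposited FPKM, 0.89 with median-of-ratios, 0.40 with quantile scaling, 0.18 with the covariate and 0.028 without the length trend. Leaving out 1 library gave 0 to 44 calls and medians of -0.13 to -0.0081.

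For Lipo-MK1775 against Free-MK1775 (18 calls, median -0.21), calls were 33 on deposited FPKM, 7 with median-of-ratios, 2 with quantile scaling, 0 with no filter, 2 with only symbol-bearing transcripts, 7 with no variance trend, 31 with only the groups compared, 0 with the covariate and 3 without the length trend. Medians were -0.67, 0.69, 0.29, 0.024 and -0.073 on deposited FPKM, median-of-ratios, quantile, covariate and length trend. Leaving out 1 library gave 0 to 43 calls (4 without either control, 3 without either Lipo-MK1775+NLG and 43 without either Free-MK1775+NLG919 library) and medians of -0.31 to -0.15.

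For Lipo-MK1775+NLG against Lipo-MK1775 (15 calls, median 0.19), calls were 32 on deposited FPKM, 6 with median-of-ratios, 3 with quantile scaling, 1 with no filter, 2 with only symbol-bearing transcripts, 43 with only the groups compared, 0 with the covariate and 2 without the length trend. Medians were 0.65, -0.74, -0.34, -0.055 and 0.022 on deposited FPKM, median-of-ratios, quantile, covariate and length trend. Leaving out 1 library gave 0 to 41 calls (9 without either control, 41 without either Free-MK1775+NLG919 library) and medians of 0.12 to 0.25.

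For Free-MK1775+NLG919, quantile scaling called 4 against the control, and leaving out 1 library gave 0 to 54 calls there and 0 to 43 against Free-MK1775. Its medians were 0.72 and 0.32 against the control with median-of-ratios and quantile scaling, and 0.52, 0.21 and 0.11 against Free-MK1775 with median-of-ratios, quantile and covariate. Leaving out 1 library gave -0.087 to 0.085 there, 0.03 to 0.17 for Free-MK1775 and 0.06 to 0.17 for Lipo-MK1775+NLG against the control.

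Genes turned sign as follows. Against the control in Lipo-MK1775, median-of-ratios gave Uqcrc1 0.19, Sdhaf2 0.21, Atp5c1 0.34 and Sdhb 0.35, quantile scaling Sdhaf2 0.15, the length setting Sdhaf2 0.11, and the covariate Sdha 0.41, Atp5a1 0.31, Atp5g1 0.23 and Ndufv1 0.20. Against Free-MK1775, median-of-ratios gave Ndufv1 0.015, Uqcrc2 0.13, Uqcrc1 0.14, Ndufb9 0.25 and Atp5l 0.26, and the covariate Ndufa3 -0.021, Sdha 0.49, Atp5a1 0.56, Ndufv1 0.34, Uqcrc2 0.21 and Uqcrc1 0.013. For NLG added to the Lipo form, median-of-ratios gave Atp5b -0.047, Uqcrc1 -0.14 and Cox6a1 -0.32, and the covariate Sdha -0.47, Ndufv1 -0.093, Ndufaf1 -0.082, Atp5g1 -0.28 and Atp5b -0.0062.

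A replicate block left 17, 12 and 14 calls in the 3 comparisons with Lipo-MK1775. The replicate numbers do not pair the libraries, with correlations of same-numbered deviations from -0.37 to 0.10. Of 48 named calls, 47 were kept with the other pseudocount, 42 with the block and 14 with no filter. The low isoforms rest on few fragments, which limits their values.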
